A study of Homo sapiens with 4 samples.

Results

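The cancer germline antigen genes MAGEA1, MAGEA3, MAGEA4, MAGEA6, MAGEA10, MAGEA12, SSX2, SYCP3 and PRAME were followed in 22Rv1, a human prostate cancer cell line. They were chosen by name, as the rows of the deposited count table that carry these symbols, and all 9 were found among 57014 named rows. The 2 control libraries come from cells of wild-type genotype with sgGFP in the library names. The 2 knockout libraries come from cells labelled as CD276 knockout with sgCD276 in the library names. The CD276 gene makes B7-H3, an immune checkpoint protein on the cell surface. Both groups were grown in RPMI-1640 with fetal bovine serum, their poly(A) RNA was sequenced as paired reads, and both carry the replicate numbers 1 and 3. The labels do not say whether a group is 1 clone or a pool of cells. The series concerns DNA methylation as a target in prostate cancer that lost RB1 or turned neuroendocrine, together with B7-H3. Neither methylation nor any drug that lowers it is part of these 4 libraries.

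Cancer germline antigens are proteins that are normally made in germ cells and are switched on again in many tumours. In most somatic cells their promoters carry methylated CpG dinucleotides and are silent, and DNA methyltransferase inhibitors are known to induce them. Peptides of MAGE-A, SSX2 and PRAME proteins can be shown to T cells on HLA molecules, so these genes are of interest as immune targets.

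The libraries held 20079050 to 25802417 counts in named rows. The CD276 row, which checks the labels, fell from 50.9 ± 4.98 normalized CPM (its counts scaled to a common library total) in the controls to 24.9 ± 1.84 in the knockouts (SD, n = 2 each), with a log2 fold change of -1.03 ± 0.16 (SE) and an edgeR adjusted p of 0.00561 (0.0812 without control replicate 3). CPM are normalized throughout by the trimmed mean of M-values, and adjusted p-values come from edgeR over all 18043 genes tested. Of these genes 22.8% were called at an adjusted p under 0.05, with 9.87% higher and 12.9% lower in the knockouts (1780 and 2331 genes). With library totals and no further scaling, 2340 were higher and 1781 lower. Over all genes tested the median log2 fold change was -0.0045. All 11 prostate line markers passed the filter on low counts, and their summed level was 4175 and 4114 normalized CPM in the controls, against 3472 and 4165 in the knockouts. The 14 markers of fibroblast, leukocyte, endothelial, basal and neuroendocrine cells summed to 201 and 205 in the controls, against 142 and 158 in the knockouts. Of these 14, 6 passed the filter, and the basal markers KRT5, KRT14 and TP63 and the leukocyte marker PTPRC held 0 to 5 counts per library. CD3E and PECAM1 were at 0 throughout. Of the 6 tested, edgeR called 1 higher and 2 lower (50% called, against 22.8% of all genes). The 2 that fell were COL1A1 (edgeR adjusted p 0.0139) and CHGA (0.0211), while the median log2 fold change of the 6 was 0.13. The part of these markers in the results was not tested.

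The promoter sequences are shown because these genes are known for control through promoter CpG methylation, and because several of them carry the same stretch of letters. Sequences are RefSeq promoters on GRCh38.p14, each with 250 bases before and 50 after the annotated start, written 5′ to 3′ on the strand of the gene, with every CpG in capitals. Promoters were found for 7 of the 9 genes (15 promoters in all), and none for MAGEA1 and MAGEA10. The MAGEA3 promoter (chrX:152698544-152698843, plus strand, 19 CpG) and the MAGEA6 promoter (chrX:152769640-152769939, minus strand) are identical over all 300 bases. The MAGEA4 promoter shown lies at chrX:151912639-151912938 on the plus strand (11 CpG) and is 1 of 5 listed for that gene. The SSX2 promoter (chrX:52707129-52707428, minus strand, 10 CpG) is identical to that of SSX2B over 300 bases. The SYCP3 promoter (chr12:101739413-101739712, minus strand) holds 24 CpG.
MAGEA3 and MAGEA6: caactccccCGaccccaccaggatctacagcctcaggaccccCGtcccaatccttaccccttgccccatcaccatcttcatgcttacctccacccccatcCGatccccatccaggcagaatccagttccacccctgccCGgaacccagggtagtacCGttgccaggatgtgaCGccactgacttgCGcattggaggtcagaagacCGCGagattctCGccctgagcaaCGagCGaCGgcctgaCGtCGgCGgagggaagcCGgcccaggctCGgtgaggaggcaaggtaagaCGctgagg
MAGEA4: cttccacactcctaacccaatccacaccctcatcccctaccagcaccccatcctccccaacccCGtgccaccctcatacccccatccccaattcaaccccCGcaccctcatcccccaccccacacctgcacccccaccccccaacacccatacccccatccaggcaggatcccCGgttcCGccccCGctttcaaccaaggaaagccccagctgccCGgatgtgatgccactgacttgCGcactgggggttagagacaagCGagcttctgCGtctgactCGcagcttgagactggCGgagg
SSX2: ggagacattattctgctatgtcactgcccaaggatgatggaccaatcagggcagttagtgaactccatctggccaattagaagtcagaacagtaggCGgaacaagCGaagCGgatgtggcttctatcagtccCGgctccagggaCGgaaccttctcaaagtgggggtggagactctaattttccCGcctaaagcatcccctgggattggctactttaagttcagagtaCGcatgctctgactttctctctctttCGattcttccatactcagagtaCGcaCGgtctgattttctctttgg
SYCP3: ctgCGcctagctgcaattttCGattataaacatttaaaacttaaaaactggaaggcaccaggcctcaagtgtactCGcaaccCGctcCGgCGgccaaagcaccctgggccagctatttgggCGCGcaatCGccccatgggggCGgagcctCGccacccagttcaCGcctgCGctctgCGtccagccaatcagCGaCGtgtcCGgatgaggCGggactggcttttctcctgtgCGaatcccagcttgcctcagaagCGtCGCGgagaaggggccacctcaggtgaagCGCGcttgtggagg

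The 15 promoters held a median of 13 CpG, against 14 (quartiles 4 and 28) over all 34943 listed promoters of the same length. Short motifs were searched on both strands. Several starts of the same gene count as separate promoters, and some of them overlap, so the counts out of 15 are not independent. CCGGAT, which holds an ETS factor core, was in 8 of the 15 promoters and in 7.13% of all promoters. Those 8 belong to MAGEA4, MAGEA12 and SYCP3 alone. CCGGAA, another ETS core, was in 3 of 15 and in 17.2% of all. GCGGGA, a short E2F-type motif, was in 3 of 15 (overlapping promoters of SSX2, and SYCP3) and in 26.8% of all. CACGTG, the E-box of MAX dimers, was in 0 of 15 and in 7.23% of all. GGATGTGANGCCACTGACTTGCGCA, which overlaps the CCGGAT motif in MAGEA4 and has N where MAGEA3 and MAGEA4 differ, was chosen after reading these promoters. It was in 6 of the 15 and in 12 of all 34943 (0.0343%), and the 12 belong to MAGEA2, MAGEA2B, MAGEA3, MAGEA4 and MAGEA6 and to CSAG3, MAGEA3-DT and MAGEA6-DT. The next lines give that stretch and its counterpart in other MAGEA promoters, so that the differing CpG can be seen. Where several listed starts of a gene carry the same letters (MAGEA4, MAGEA2 and MAGEA12), a single start is shown. The distance differs at the others. A match is a description of letters and not a bound site.
MAGEA4, 34 bases before the start: gccCGgatgtgatgccactgacttgCGca
MAGEA4, another start, 20 bases before it: gccCGgatgtgacatccctgacttgCGca
MAGEA3 and MAGEA6, 86 bases before the start: gccaggatgtgaCGccactgacttgCGca
MAGEA2, 60 bases before the start: gccCGgatgtgaCGccactgacttgCGca
MAGEA12, 12 bases before the start: ggcCGgatgtgaCGccactgacttgCGCG
MAGEA11, 13 bases before the start: ggcCGgatgtgacctccattggcttcCGc
The MAGEA12 line holds 4 CpG, the MAGEA2 line 3 and the other lines shown 2 each. The counterparts in MAGEA8 and MAGEA9, which are not shown, hold 4 CpG each.

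Of the 9 genes 8 passed the filter on low counts, and MAGEA10 did not. The changes went both ways within the group. MAGEA4, MAGEA1 and MAGEA6 rose in the knockouts, while SSX2 and SYCP3 fell, and MAGEA3, MAGEA12 and PRAME were not called. Thus 3 genes were called higher against 9.87% of all genes, and 2 lower against 12.9% of all genes. DESeq2 also called 3 higher and 2 lower, and limma voom 2 and 2. In all 8 genes both knockout libraries lay on the same side of both controls, 5 above and 3 below, as was so for 65.9% of all genes (31.8% above and 34.1% below). The labels call the replicates biological and name no separate cultures, and the p-values then reflect the spread among these libraries alone. In bulk RNA, fewer cells expressing a gene and less RNA per cell cannot be told apart.

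**Figure D1:**
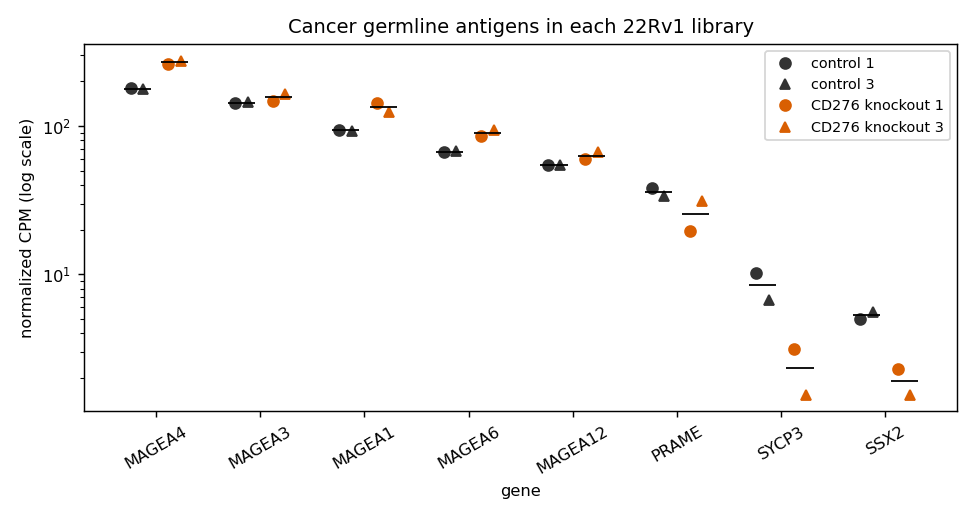
Normalized CPM (log axis) of the 8 cancer germline genes that passed the filter on low counts, with 1 symbol per library and a line at each group mean; heights of different genes are not corrected for transcript length. Both knockout libraries lie above both controls for the 5 MAGEA genes and below them for PRAME, SYCP3 and SSX2.

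The name of the group as silenced genes did not describe MAGEA1, MAGEA3, MAGEA4, MAGEA6 and MAGEA12 in the control cells, whereas MAGEA10 held 0 and 3 counts there. Per kilobase of annotated exons, MAGEA3 stood highest in the controls at 79.9 normalized CPM, followed by MAGEA4 at 57.9, MAGEA1 at 54.7, MAGEA6 at 35.8 and MAGEA12 at 28.2. PRAME followed at 9.46, SSX2 at 3.45, SYCP3 at 2.21 and MAGEA10 at 0.0267. No neighbours in this order overlapped between the control libraries, except that the MAGEA10 row holds too few counts to place. In the knockouts, MAGEA3 at 87.3 and MAGEA4 at 87.0 per kilobase overlapped. MAGEA1 followed at 78.1, and its higher library (83.8) lay above the lower MAGEA3 library (82.9) and below both MAGEA4 libraries. SSX2 and SYCP3 stood at 1.25 and 0.610 per kilobase in the knockouts. The lengths are unions of all annotated exons, 3081 bases for MAGEA4 and 1788 for MAGEA3. Before division by length MAGEA4 stood above MAGEA3 in the controls, at 178 and 143 normalized CPM, so their order rests on the length used.

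MAGE-A proteins bind RING-type ubiquitin ligases, and their genes lie on the X chromosome. MAGEA4 (chrX:151912509-151925170, plus strand, GRCh38) encodes a protein known to bind the ubiquitin ligase RAD18. Its level was 179 and 178 normalized CPM in control replicates 1 and 3 and 261 and 275 in knockout replicates 1 and 3, from 3444 to 7121 counts. The groups were far apart compared with the gap between replicates. The means were 178 ± 0.965 and 268 ± 10.0 (SD, n = 2), a log2 fold change of 0.59 ± 0.14 (SE), with an edgeR adjusted p of 0.0192. An antisense gene, MAGEA4-AS1, shares 5.58% of the MAGEA4 exons; whether reads were counted by strand is unknown here.

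MAGEA1 (chrX:153179285-153183880, plus strand) encodes one of the earliest known tumour antigens recognised by T cells. Its level was 94.4 and 92.6 normalized CPM in the controls, against 143 and 124 in the knockouts. The gap between the knockout libraries was wider than that between the controls, yet both were well above them. The means were 93.5 ± 1.23 and 134 ± 13.7 (SD, n = 2), a log2 fold change of 0.51 ± 0.14 (SE) or 1.43-fold, with an edgeR adjusted p of 0.0317.

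MAGEA6 (chrX:152766136-152769747, minus strand) and MAGEA3 encode nearly identical proteins known as partners of the ubiquitin ligase TRIM28. MAGEA6 stood at 66.2 and 67.3 normalized CPM in the controls, against 86.0 and 93.6 in the knockouts. The means were 66.8 ± 0.771 and 89.8 ± 5.35 (SD, n = 2), a log2 fold change of 0.43 ± 0.13 (SE) or 1.34-fold, with an edgeR adjusted p of 0.0489. This call sits at the threshold and was lost in 7 of 15 alternative analyses, with adjusted p-values up to 0.478. MAGEA3 (chrX:152698752-152702347, plus strand) stood at 142 and 144 normalized CPM in the controls, against 148 and 164 in the knockouts. Its log2 fold change was 0.13 ± 0.14 (SE), with an edgeR adjusted p of 0.525, and 1 knockout library was only slightly above the controls.

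MAGEA12 (chrX:152733779-152737669, plus strand), another member of the family, stood at 54.6 and 54.9 normalized CPM in the controls, against 59.7 and 66.4 in the knockouts. The groups did not overlap, but the log2 fold change of 0.20 ± 0.14 (SE) was not called (edgeR adjusted p 0.304). MAGEA10 (chrX:152133310-152138578, minus strand) had 0 and 3 counts in the controls, against 5 and 3 in the knockouts. At a floor of 3 counts, which is 0.116 to 0.149 CPM in these libraries and covers counting error only, no difference could be seen at this depth. Part of its exons (16.2%) also belong to the readthrough gene MAGEA10-MAGEA5.

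**Figure D2:**
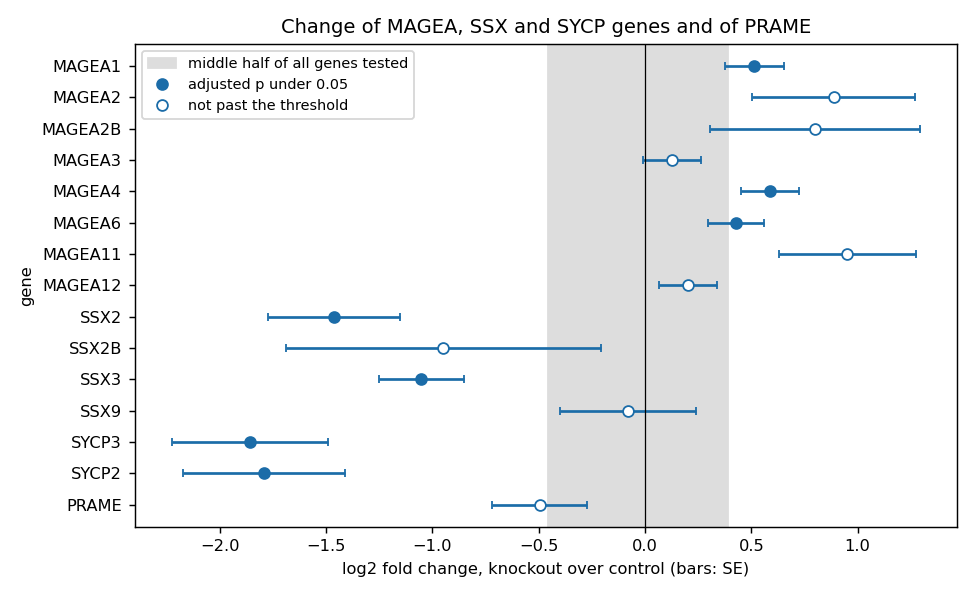
Log2 fold change, knockout over control, with its SE for the tested MAGEA and SSX genes, SYCP2, SYCP3 and PRAME. Filled points have an adjusted p under 0.05, and the grey band spans the lower to the upper quartile of all 18043 genes tested (-0.46 to 0.39). The 8 MAGEA points lie right of 0, and SSX2, SSX2B, SSX3, SYCP2, SYCP3 and PRAME lie left of the band.

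The table held 13 MAGEA rows, of which 8 were tested. Their log2 fold changes were all above 0, in each alternative analysis too, with a median of 0.55, and edgeR called 3 higher, against 9.87% of all genes, and 0 lower, against 12.9% of all genes. At an unadjusted p under 0.05 there were 5 higher and 0 lower, by DESeq2 3 and 0, and by limma voom 2 and 0. Across 15 alternatives 0 to 5 were called higher and 0 lower. Of the rows outside the 9 genes, MAGEA11, whose protein binds the androgen receptor, had 39 and 29 counts in the controls, against 79 and 85 in the knockouts (log2 fold change 0.95 ± 0.32 (SE), edgeR adjusted p 0.0634). MAGEA2 had 25 and 29 counts against 75 and 51 (0.89 ± 0.38, adjusted p 0.125), and MAGEA2B 14 and 17 against 25 and 43 (0.80 ± 0.49, adjusted p 0.267). These 3 rows had the largest fold changes of the family and the fewest counts among those tested, and none was called. MAGEA8 held 1 to 4 counts and MAGEA9 0 to 2, and MAGEA5 and MAGEA9B were at 0 in all 4 libraries. All 13 rows summed to 540 and 541 normalized CPM in the controls, against 705 and 730 in the knockouts, with a log2 fold change of 0.41 ± 0.16 (SE) that was not called (edgeR adjusted p 0.0933). DESeq2 called this sum at 0.43 (adjusted p 0.0320), and library totals without scaling gave 0.52 (adjusted p 0.0369). Without knockout replicate 1 or knockout replicate 3 this sum was 0.45. Such fits hold 1 knockout library and take their spread from the controls alone.

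SSX proteins are nuclear repressors of transcription, and SSX2 is known as a fusion partner of SS18 in synovial sarcoma. SSX2 (chrX:52696896-52707189, minus strand) stood at 5.02 and 5.58 normalized CPM in the controls, against 2.28 and 1.55 in the knockouts, from 112, 108, 60 and 40 counts. Both knockouts lay below both controls, and the groups were further apart than their replicates. The means were 5.30 ± 0.396 and 1.92 ± 0.522 (SD, n = 2), a log2 fold change of -1.46 ± 0.31 (SE), or 2.76-fold lower, with an edgeR adjusted p of 0.0140. Its paralog SSX3 was the most abundant SSX row, at 98.1 and 84.5 normalized CPM in the controls, against 52.8 and 35.2 in the knockouts, and it fell by 1.05 ± 0.20 (SE) on the log2 scale (edgeR adjusted p 0.0101). SSX9 did not separate the groups, with 151 and 93 counts in the controls, against 182 and 104 in the knockouts (log2 fold change -0.08 ± 0.32, adjusted p 0.878). SSX2B held 4 to 16 counts per library (-0.95 ± 0.74, adjusted p 0.380). SSX1, SSX4, SSX4B, SSX5 and SSX7 held 0 to 5 counts per library and were not tested.

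SYCP3 is a structural protein of the synaptonemal complex, the scaffold that pairs chromosomes in meiosis. SYCP3 (chr12:101728648-101739472, minus strand) stood at 10.2 and 6.76 normalized CPM in the controls, against 3.12 and 1.55 in the knockouts, from 227, 131, 82 and 40 counts. Replicates 1 and 3 differed within each group, and the groups still did not overlap. The means were 8.46 ± 2.41 and 2.33 ± 1.11 (SD, n = 2), a log2 fold change of -1.86 ± 0.37 (SE), or 3.62-fold lower, with an edgeR adjusted p of 0.0115. This was the largest change among the 8 genes tested. Of its exonic bases 14.8% overlap CHPT1, a phospholipid synthesis gene on the opposite strand, and reads of the shared bases cannot be told apart without strand. CHPT1 stood at 284 ± 24.6 and 275 ± 2.07 normalized CPM (SD, n = 2; log2 fold change -0.05 ± 0.15, adjusted p 0.845).

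PRAME is a substrate receptor of a cullin ubiquitin ligase and a known repressor of retinoic acid receptor signalling. PRAME (chr22:22547701-22559361, minus strand) stood at 37.9 and 33.5 normalized CPM in the controls, against 19.5 and 31.2 in the knockouts. Knockout replicate 1 was well below the controls, and knockout replicate 3 was close to the lower of them. The log2 fold change was -0.49 ± 0.22 (SE) with an edgeR adjusted p of 0.139. Without knockout replicate 3 it was -0.80, and without knockout replicate 1 it was -0.19.

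Leaving out a control ended most of the 5 calls. Without control replicate 1, MAGEA4, MAGEA1, MAGEA6, SSX2 and SYCP3 had adjusted p-values of 0.335, 0.367, 0.478, 0.123 and 0.126, and 0 of the 8 genes were called by edgeR. Without control replicate 3, SYCP3 alone was called (adjusted p 0.0194), and the other 4 had adjusted p-values of 0.293, 0.341, 0.396 and 0.136. SSX3 was lost without control replicate 1 (-0.94, adjusted p 0.102). The number of calls over all genes fell too, from 4111 to as few as 312, and the direction of none of the 8 genes turned. Over 15 alternatives, 103 of 120 values for the 8 genes kept their direction and their side of the threshold, 14 lost the call and 3 gained one. These 15 leave out the stricter threshold, an adjusted p under 0.01, at which all 5 calls were lost.

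**Figure D3:**
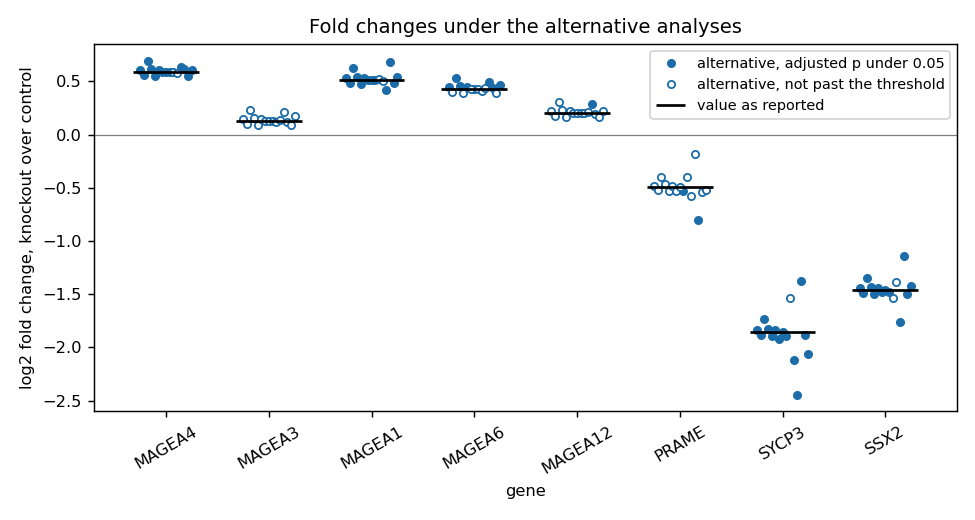
Log2 fold change, knockout over control, of each of the 8 genes tested under 15 alternative analyses; filled points have an adjusted p under 0.05 and the line marks the value as reported. No point crosses 0, and the widest spreads belong to SYCP3 (-2.44 to -1.38), SSX2 (-1.76 to -1.14) and PRAME (-0.80 to -0.19).

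Several of these genes have near-identical copies, and the sources used here do not say how reads that fit several genes were counted. Each annotated transcript was therefore cut into all windows of 150 bases, the read length, and a window was called unique if no transcript of another gene held it. MAGEA1 and PRAME were unique in 100% of windows, MAGEA4 in 99.7%, MAGEA12 in 99.0% and SYCP3 in 90.5%, where CHPT1 shared the rest. MAGEA3 was unique in 72.9% and MAGEA6 in 74.4%, the rest being shared between them. SSX2 had no unique window, since SSX2B held all of them, whereas SSX3 was unique in 100%. Yet every library assigned more reads to SSX2 than to SSX2B, with 40 to 112 for SSX2 and 4 to 16 for SSX2B. The windows do not account for this split, and how it arose was not tested. MAGEA2 and MAGEA2B were unique in 12.0% and 22.1%. The SSX2 row is therefore best read together with SSX2B.

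**Figure D4:**
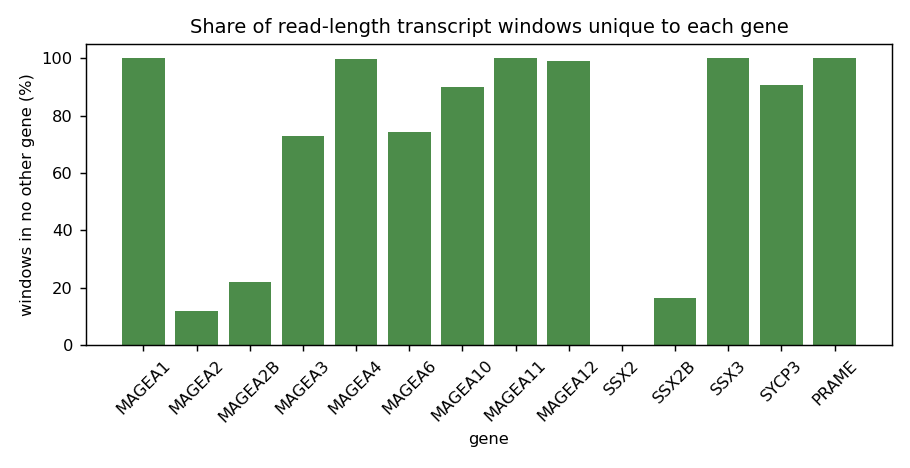
Percent of 150-base transcript windows that occur in no other gene, for the 9 cancer germline genes and close paralogs. SSX2 is at 0, MAGEA2, MAGEA2B and SSX2B are under 25%, and MAGEA3 and MAGEA6 lie between 70% and 75%.

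Near-identical rows were also summed and refitted. SSX2 with SSX2B held 119 and 124 counts in the controls, against 64 and 51 in the knockouts, and the sum fell by 1.41 ± 0.28 (SE) on the log2 scale with an edgeR adjusted p of 0.0121. MAGEA3 with MAGEA6 stood at 210 ± 2.51 and 246 ± 16.5 normalized CPM (SD, n = 2). That sum was not called, at a log2 fold change of 0.23 ± 0.14 (SE) and an adjusted p of 0.258, so the call of MAGEA6 alone was not kept by the sum. In the fit with GC and length offsets the MAGEA3 and MAGEA6 sum was 0.11 (edgeR adjusted p 0.542). Summed rows took the median GC content and length of the genes tested there, so 0.11 is not a correction for these genes. The MAGEA3 and MAGEA6 sum was 0.31 without knockout replicate 1 and 0.23 without knockout replicate 3. MAGEA2 with MAGEA2B was not called with all 4 libraries (0.86 ± 0.31, adjusted p 0.0784). Over 15 alternatives its log2 fold change was 0.64 to 1.09. SSX4 with SSX4B held 0 to 6 counts and was not tested.

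The share of MAGEA6 in the summed MAGEA3 and MAGEA6 counts needs no scaling between libraries. It was 31.9% (95% Wilson interval 30.5 to 33.2) and 31.8% (30.4 to 33.3) in the controls, and 36.7% (35.5 to 37.9) and 36.3% (35.2 to 37.5) in the knockouts. The intervals, which cover counting error only, did not overlap between groups, and the mean share was 4.68 percentage points higher in the knockouts. This share and the pair of shares given next were chosen after the values were seen. With 2 libraries against 2, the exact two-sided permutation test cannot go below p = 0.333, and it gave 0.333 for each of the 3 shares (0.333 after Benjamini-Hochberg adjustment).

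MAGEA3, MAGEA12 and MAGEA6 lie in 1 block of the X chromosome (chrX:152698752-152769747) that alternates MAGEA with CSAG genes, another family of cancer germline antigens. MAGEA12 starts 44 bases from CSAG1 on the opposite strand, MAGEA2B 37 bases from CSAG2, and MAGEA2 37 bases from CSAG3. The 5 MAGEA genes of the block had log2 fold changes above 0 and the 4 CSAG genes below 0, but only MAGEA6 was called. CSAG1 stood at 53.1 and 52.0 normalized CPM in the controls, against 32.1 and 46.5 in the knockouts (log2 fold change -0.42 ± 0.19 (SE), edgeR adjusted p 0.138). CSAG2 had -0.52 ± 0.27 (adjusted p 0.197), CSAG3 -0.41 ± 0.25 (adjusted p 0.265) and CSAG4 -0.86 ± 0.33 (adjusted p 0.0880). CSAG4 is annotated as a transcribed pseudogene on the strand of MAGEA12, with which it shares 4.37% of its exonic bases. All 4 CSAG rows were lower in knockout replicate 1 than in knockout replicate 3. CSAG2 and CSAG3 were unique in 29.2% and 28.3% of windows, and CSAG1 in 100%.

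MAGEA12 made up 50.7% (95% Wilson interval 48.7 to 52.7) and 51.4% (49.2 to 53.5) of the counts of the MAGEA12 and CSAG1 pair in the controls. In the knockouts it made up 65.1% (63.1 to 66.9) and 58.8% (57.0 to 60.6), and the mean share was 10.9 percentage points higher. MAGEA2 with MAGEA2B made up 4.12% and 5.84% of their counts with CSAG2 and CSAG3 in the controls, against 15.2% and 8.87% in the knockouts. The mean share was 7.05 percentage points higher in the knockouts (3.89 if knockout replicate 1 is left out, 10.2 if replicate 3 is), and both knockouts were above both controls. For this share the 95% Wilson intervals of control replicate 3 (4.40 to 7.70) and knockout replicate 3 (7.30 to 10.7) overlapped. Within these neighbouring pairs the MAGEA partner took a larger share in every knockout library than in any control library.

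**Figure D5:**
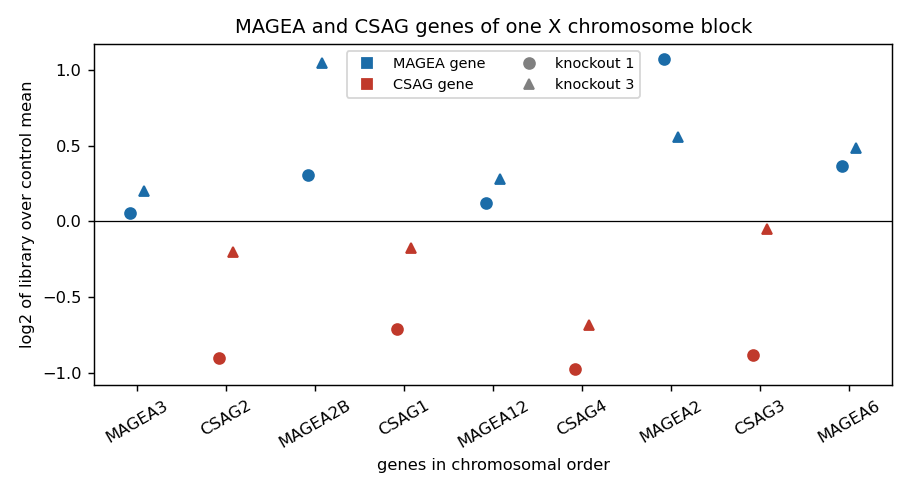
Log2 of each knockout library over the control mean (normalized CPM, pseudocount 0.1) for the 9 MAGEA and CSAG genes of the X chromosome block, in chromosomal order. All MAGEA points lie above 0 and all CSAG points below 0, and circles (knockout replicate 1) lie lower than triangles (knockout replicate 3) for the 4 CSAG genes.

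Related genes were read from lists that were chosen with earlier results of these data known. Of 58 other X-linked cancer germline genes, 30 were at 0 in every library and 9 were tested. Of these 0 were called by edgeR in either direction, against 22.8% of all genes, with 1 higher and 1 lower at an unadjusted p under 0.05 and 0 and 0 by DESeq2. The best expressed, CTAG2, whose product is close to the antigen NY-ESO-1, stood at 179 and 185 normalized CPM in the controls, against 115 and 159 in the knockouts (log2 fold change -0.41 ± 0.17 (SE), adjusted p 0.117). It was -0.59 if knockout replicate 3 is left out, and -0.18 if knockout replicate 1 is. Correcting for GC content and transcript length turned this to 0.07. MAGEC2, a MAGE gene of another X-linked family, held 48 and 33 counts in the controls, against 107 and 77 in the knockouts (0.87 ± 0.33, adjusted p 0.0887).

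Of 36 tested autosomal germline and meiotic genes outside the 9, 6 were called higher and 6 lower (33.3% called, against 22.8% of all genes), with a median log2 fold change of 0.0058. SYCP2, which forms the chromosome axis with SYCP3, stood at 2.42 and 2.53 normalized CPM in the controls, against 0.724 and 0.696 in the knockouts, and fell by 1.79 ± 0.38 (SE) on the log2 scale (edgeR adjusted p 0.0145). This fall ran alongside that of SYCP3 at a lower level. MSH5, a meiotic crossover factor, fell by 1.44 ± 0.24 (adjusted p 0.00681), although 47.3% of its exons are shared with SAPCD1 and its readthrough gene. ASZ1, a factor of the germline piRNA pathway, fell by 1.77 ± 0.32 (adjusted p 0.00861), and the zinc finger gene ZNF165 by 0.85 ± 0.18 (adjusted p 0.0132). SPAG9, a scaffold protein of JNK signalling, rose by 0.84 ± 0.16 (adjusted p 0.0103). Without control replicate 1 or without control replicate 3, SYCP2, ASZ1, ZNF165 and SPAG9 were not called, and MSH5 was. Further genes were named after their values were seen. The meiotic cohesin subunit REC8 fell by 1.41 ± 0.30 (adjusted p 0.0151) and the synaptonemal complex gene SYCE2 by 0.77 ± 0.21 (adjusted p 0.0336). In the other direction MEIOC and TEX15, both needed for male meiosis, rose by 1.18 ± 0.32 and 0.98 ± 0.24 (adjusted p 0.0319 and 0.0220). None of these 4 was called when either control was left out.

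Of 24 DNA methylation genes and germline gene repressors, all tested, 1 was called higher and 2 lower (12.5% called, against 22.8% of all genes). HELLS, a chromatin remodeller needed for DNA methylation, stood at 135 and 125 normalized CPM in the controls, against 82.0 and 66.4 in the knockouts, and fell by 0.81 ± 0.15 (SE) on the log2 scale (edgeR adjusted p 0.00970). RING1, a Polycomb ubiquitin ligase, fell by 0.46 ± 0.14 (adjusted p 0.0472), and ZBTB33, which binds methylated CpG, rose by 0.57 ± 0.17 (adjusted p 0.0450). DNMT1, the maintenance methyltransferase, stood at 369 and 396 normalized CPM in the controls, against 349 and 244 in the knockouts. Its log2 fold change was -0.37 ± 0.19 (SE), with an adjusted p of 0.191, and the knockouts differed widely. It was -0.64 without knockout replicate 1 and -0.07 without knockout replicate 3. HELLS, RING1 and ZBTB33 were not called when either control was left out, and RING1 lost its call in 8 of 15 alternatives, with -0.15 after correction for GC content and length. Whether these levels bear on the cancer germline genes was not tested.

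The genes whose pattern was nearest to a called gene were found by Euclidean distance of log2 normalized CPM, centred over the 4 libraries, among 18000 candidates. PWP1 was nearest to MAGEA1 (0.0082), ZMIZ1-AS1 to MAGEA4 (0.0193) and RHOT1 to MAGEA6 (0.0199). SULT1A2 was nearest to SSX2 (0.0466) and Z97192.1 to SYCP3 (0.0770). None of the 3 nearest genes of any called gene was another of the 9 genes, and 4 libraries leave many genes with a like pattern.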

How the data were processed

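For 22Rv1 the authors deposited a single table with raw counts for each gene in the 4 libraries, with whole numbers and differing totals. Trimmomatic 0.36, STAR 2.5.2b and Subread 1.5.2 (featureCounts) produced it on GRCh38, per the submitters' processing notes. The sources used here do not give the strand setting, how multi-mapping reads were treated, or the annotation release. Rows that name no gene (0.0191% to 0.0290% of counts) stayed out of library sizes and tests. After filterByExpr and scaling by the trimmed mean of M-values (factors 0.962, 0.965, 1.07 and 1.00), group was tested as the only term with the quasi-likelihood fit of edgeR 4.0.16 (R 4.3.3, robust=TRUE). Benjamini-Hochberg adjustment ran over the 18043 genes tested, and calls are adjusted p-values under 0.05. Each SE is the log2 fold change over the root of its F statistic, without sign. The script was tested on simulated data.

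The 9 genes and the lists were chosen with earlier results of these data known. The rule for named genes took the 9 genes, CD276 and every MAGEA and SSX row with a count. From each other list it took up to 5 called genes with the smallest p, or the 3 with the smallest p where fewer than 3 were called, and it took the 3 nearest patterns of each called gene. Not every gene so chosen is reported here. Coordinates (1-based), exon overlap and window uniqueness came from GENCODE 29 on GRCh38, and promoters from RefSeq. The alternatives were RLE and upper quartile scaling, library totals, no filter or at least 50 counts, DESeq2 1.42.0, voom of limma 3.58.1, robust=FALSE, a replicate block, leaving out each library, and a threshold of 0.01. Fits with protein-coding nuclear genes alone, and with GC and length offsets, were added after seeing the data. With the offsets, summed rows took the median GC content and length of the genes tested. Counting error is the least error of each value, since no molecular identifiers are named.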

Additional observations from a re-analysis of the deposited data

How the results depend on the processing

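At an adjusted p under 0.01 edgeR called 0 of the 9 genes (0 higher, 0 lower; at an unadjusted p under 0.05 it called 3 and 2), 1036 genes in all (361 higher, 675 lower) and 4 genes of the other lists, and SSX2 with SSX2B (-1.41) was no longer called. Leaving out each library in turn gave 0 to 4 of the 9 genes higher, 0 to 3 lower and 0 to 6 in all. It gave 312 to 9198 genes called in all (45 to 4795 higher, 267 to 4471 lower) and 2 to 55 in the other lists. These fits leave 1 library in a group and take their spread from the other group alone. The chi-square of counts per degree of freedom was 6.19 between the controls and 48.4 between the knockouts. With 1 library left out the sums ranged from 0.22 to 0.31 for MAGEA3 with MAGEA6 and 0.64 to 1.09 for MAGEA2 with MAGEA2B. They ranged from -1.56 to -1.19 for SSX2 with SSX2B and 0.41 to 0.45 for all MAGEA rows. Among the alternatives that kept all 4 libraries, the sum of all MAGEA rows passed the threshold under library totals (0.52) and DESeq2 (0.43) alone. With GC and length offsets that sum was 0.29 and MAGEA3 with MAGEA6 0.11. Summed rows took the median GC content and length of the genes tested, so these values are not a correction for the MAGEA genes. MAGEA3 with MAGEA6, and MAGEA2 with MAGEA2B, passed the threshold in no alternative that kept all 4 libraries. Library totals alone moved the median of all genes by 0.11 and gave 2340 genes higher and 1781 lower. Relative to that shift MAGEA4, MAGEA1, MAGEA6, SSX2 and SYCP3 were at 0.59, 0.52, 0.43, -1.46 and -1.84. Directions reversed only for genes that were not called: SSX9 with library totals (0.038), CHPT1 with library totals (0.062), CTAG2 with GC and length offsets (0.068), and, when 1 library was left out, SSX9 (range -0.52 to 0.32), CHPT1 (-0.13 to 0.043) and CTAG1A with CTAG1B (-0.78 to 0.079). The replicate numbers did not pair the libraries (correlation of same-numbered deviations -0.015). A replicate block called 2 of the 9 genes higher and 3 lower, with PRAME at -0.53 (adjusted p 0.0388) and MAGEA6 at 0.43 (adjusted p 0.0716), and 4843 genes in all. The cause of these changes was not tested.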

Other observations

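Genes taken as partners of the products of the 9 genes, directly or through other proteins, were read from a list as well. So were the MAGE genes that are expressed outside the germline. Binding was not tested. Of 18 partner genes, all tested by edgeR, 3 were called higher and 2 lower, 27.8% against 22.8% of all genes. RNF4, a SUMO-targeted ubiquitin ligase, stood at 27.0 and 28.8 normalized CPM in the controls, against 79.2 and 56.3 in the knockouts, and rose by 1.28 ± 0.19 (SE) on the log2 scale (edgeR adjusted p 0.00497). RAD18, a known partner of MAGEA4, rose by 0.58 ± 0.18 (adjusted p 0.0498), and RXRA, the partner of retinoic acid receptors, by 0.54 ± 0.16 (adjusted p 0.0400). EZH2, the Polycomb methyltransferase to which PRAME is known to bind, stood at 192 and 176 normalized CPM in the controls, against 129 and 99.4 in the knockouts, and fell by 0.69 ± 0.16 (adjusted p 0.0199). RBX1, the RING subunit of cullin ligases, fell by 0.61 ± 0.14 (adjusted p 0.0189). Without control replicate 1 or control replicate 3, RAD18, RXRA, EZH2 and RBX1 were not called, and RAD18 lost its call in 8 of 15 alternatives.

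Of 8 tested MAGE genes expressed outside the germline, edgeR called 0 higher (2 at an unadjusted p under 0.05, 0 by DESeq2) and 2 lower, 25% called against 22.8% of all genes. MAGED2, which is expressed in many tissues, stood at 161 ± 20.8 and 110 ± 10.9 normalized CPM (SD, n = 2) and fell by 0.55 ± 0.15 (SE; adjusted p 0.0346), with an adjusted p of 0.0615 under library totals alone. MAGEF1 fell by 0.46 ± 0.14 (adjusted p 0.0416). Neither was called when either control was left out. MAGED1 stood at 107 and 102 normalized CPM in the controls, against 144 and 134 in the knockouts, with a log2 fold change of 0.41 ± 0.13 (SE) and an adjusted p of 0.0564.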
